A study of Homo sapiens with 4 samples.

Results

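*MNX1*, *EN1*, *EN2*, *GBX1*, and *GBX2* are 5 homeobox genes of the Engrailed, MNX, and GBX families, taken here by name from 20033 protein-coding genes. Every CUT&RUN peak that overlapped the body of one of them, or the 50 kb on either side, was assigned to that gene, with gene positions from GENCODE 44 on hg38. These 5 windows held 57 of the 15141 SS18::SSX peaks called in cells given DMSO and 6 of the 1175 called after MS67. For WDR5 they held 37 of 35605 peaks with DMSO and 17 of 14123 with MS67.

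Homeobox genes encode transcription factors that bind DNA through a homeodomain, and many of them set the identity of regions and cell types in the embryo. EN1 and EN2 are repressors best known for patterning the midbrain-hindbrain region, where GBX2 acts on the hindbrain side of the boundary. MNX1 (also called HB9) specifies spinal motor neurons and takes part in pancreas development, and GBX1 is a close relative of GBX2 that is expressed in the developing spinal cord. SS18::SSX, the fusion oncoprotein of synovial sarcoma, joins the SWI/SNF chromatin-remodeling complex and is known to occupy developmental genes. WDR5 is a scaffold of the MLL complexes, which methylate histone H3 at lysine 4.

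The cells were HSSY II, a human synovial sarcoma line that carries SS18::SSX1. All groups were this same line, kept for 4 days either with DMSO as the vehicle control or with 2.5 μM MS67, a PROTAC that directs WDR5 to degradation. Each library came from 1000000 HSSY II cells with 50000 murine NIH-3T3 cells added for spike-in scaling. The authors' methods describe these murine cells as carrying H2B-GFP. The question was where the fusion and WDR5 sat on chromatin with and without MS67. Each condition had 1 library, so nothing below could be checked against replicates and no p-value is given, and the exact 95% intervals of shares cover counting error only.

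A peak list gives calls, not a signal track. The number of fragments at a summit and the local background of the peak caller were worked out from each peak's fold enrichment and p-value, and the smallest such background of a library served as its genome-wide coverage. Coverage was 0.541 fragments per bp for SS18::SSX with DMSO and 0.737 with MS67 (1.36 times as deep), and it was 0.368 for WDR5 with DMSO and 0.168 with MS67 (0.458 times as deep). The values below carry no spike-in scaling.

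The sequences on which the results turn are shown first, in the plus strand of hg38. For each gene the 201 bases around the summit of its SS18::SSX DMSO peak of highest −log10 q are given. GGGCGG or its reverse complement CCGCCC (the SP/KLF motif) and TAATTA (a homeodomain core) stand in capitals.
MNX1, chr7:157019129-157019329: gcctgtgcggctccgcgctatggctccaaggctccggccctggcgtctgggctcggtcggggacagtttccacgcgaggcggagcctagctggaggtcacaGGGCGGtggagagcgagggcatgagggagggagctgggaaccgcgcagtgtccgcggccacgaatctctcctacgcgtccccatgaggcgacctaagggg
EN1, chr2:118856907-118857107: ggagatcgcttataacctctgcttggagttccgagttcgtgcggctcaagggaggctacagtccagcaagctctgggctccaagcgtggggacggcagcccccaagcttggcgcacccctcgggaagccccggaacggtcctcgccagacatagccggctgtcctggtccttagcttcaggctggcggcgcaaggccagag
EN2, chr7:155466657-155466857: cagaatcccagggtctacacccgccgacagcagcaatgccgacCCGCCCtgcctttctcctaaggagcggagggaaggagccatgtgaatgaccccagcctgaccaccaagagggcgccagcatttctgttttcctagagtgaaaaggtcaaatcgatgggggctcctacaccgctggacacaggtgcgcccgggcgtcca
GBX1, chr7:151173722-151173922: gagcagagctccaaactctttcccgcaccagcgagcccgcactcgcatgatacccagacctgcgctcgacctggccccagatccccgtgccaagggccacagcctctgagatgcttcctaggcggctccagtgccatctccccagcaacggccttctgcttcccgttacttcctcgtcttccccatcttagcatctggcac
GBX2, chr2:236162022-236162222: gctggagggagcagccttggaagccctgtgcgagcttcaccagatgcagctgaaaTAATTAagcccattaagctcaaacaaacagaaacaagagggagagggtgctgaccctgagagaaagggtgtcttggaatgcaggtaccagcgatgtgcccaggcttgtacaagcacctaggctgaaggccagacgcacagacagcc
The next stretch is shown because it is the part of *MNX1* that was inside a peak in all 4 libraries, and it holds none of the 4 motifs searched.
MNX1, peak in every library, chr7:157008308-157008458: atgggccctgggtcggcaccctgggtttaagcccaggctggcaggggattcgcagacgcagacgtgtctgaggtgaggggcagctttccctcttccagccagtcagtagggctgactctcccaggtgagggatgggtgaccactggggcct
The last one is the stretch of *GBX1* that a WDR5 peak covered with both DMSO and MS67, next to the inner of its annotated start sites, and it holds GGGCGG or CCGCCC at 4 places.
GBX1, WDR5 peak at an inner start site, chr7:151168169-151168451: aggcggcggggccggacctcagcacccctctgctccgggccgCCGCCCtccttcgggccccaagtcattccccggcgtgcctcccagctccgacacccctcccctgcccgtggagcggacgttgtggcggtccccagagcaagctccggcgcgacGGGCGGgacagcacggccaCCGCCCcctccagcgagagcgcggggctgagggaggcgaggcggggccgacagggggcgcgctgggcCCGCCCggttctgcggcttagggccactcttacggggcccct

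With DMSO, SS18::SSX peaks were found at all 5 genes, and they were many at *MNX1*, *EN2*, and *EN1*. There were 23 SS18::SSX peaks at *MNX1*, 20 at *EN2*, 10 at *EN1*, 2 at *GBX1*, and 2 at *GBX2*. Over all protein-coding genes, 47.6% had at least 1 SS18::SSX DMSO peak in a window built the same way, and 2.95% had at least 10, as *MNX1*, *EN2*, and *EN1* did. Ordered by peak number among the 20033 genes, *MNX1* ranked 113, *EN2* 157, and *EN1* 527, while *GBX1* and *GBX2* shared rank 3386. Peaks covered 7.61% of the *MNX1* window and 7.68% of the *EN2* window, which were nearly alike, and 2.23%, 1.99%, and 0.757% of those of *EN1*, *GBX1*, and *GBX2*. *GBX1* thus came close to *EN1* in share of the window with far fewer peaks, because 1 of its peaks was 1814 bp wide. In covered length it was above *EN1*, with 2517 bp against 2350 bp, in a longer window.

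WDR5 peaks followed another order. With DMSO there were 18 at *MNX1*, 13 at *EN2*, 4 at *GBX1*, 2 at *GBX2*, and none at *EN1*, against 85.4% of genes with at least 1 WDR5 DMSO peak and 8.77% with at least 10. They covered 5939 bp at *MNX1*, 6006 bp at *EN2*, 2124 bp at *GBX1*, and 973 bp at *GBX2*. *EN1* was the member with SS18::SSX peaks alone. Of the 9535 genes with an SS18::SSX DMSO peak, 2.05% had no WDR5 DMSO peak in their window, and of the 591 genes with at least 10 SS18::SSX peaks only 2 did (0.338%), *EN1* and *ACTRT2*, the latter named after its values were seen.

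**Figure D1:**
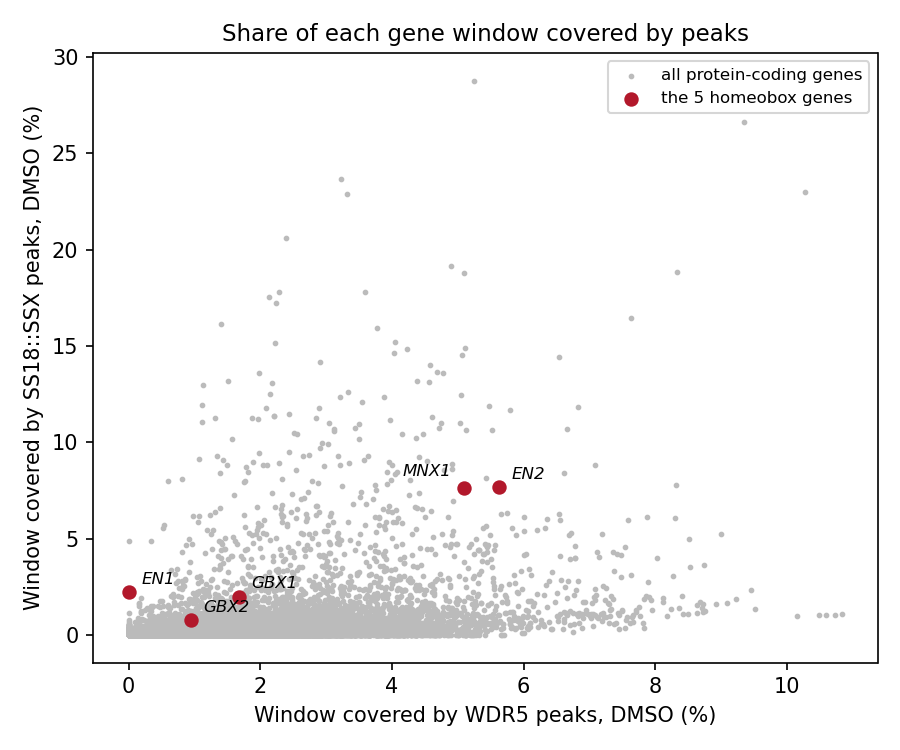
Share of each gene window (gene body plus 50 kb each side) covered by SS18::SSX peaks (vertical axis, %) against the share covered by WDR5 peaks (horizontal axis, %), both with DMSO. Each grey point is 1 of 20033 protein-coding genes and the red points are the 5 homeobox genes. *MNX1* and *EN2* lie together at 7.61% and 7.68% for SS18::SSX, and *EN1* stands on the vertical axis with 0 for WDR5.

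With MS67 the calls at the 5 genes were fewer for both proteins. For SS18::SSX, 3 peaks were called at *MNX1*, 2 at *EN2*, 1 at *GBX1*, and none at *EN1* or *GBX2*, while 6.68% of genes had at least 1. For WDR5, 10 peaks were called at *MNX1*, 4 at *EN2*, 3 at *GBX1*, and none at *EN1* or *GBX2*, while 70.6% of genes had at least 1. The covered length of SS18::SSX with MS67 was 0.125 times that with DMSO at *MNX1*, 0.0729 times at *EN2*, and 0.123 times at *GBX1*. For WDR5 it was 0.399, 0.149, and 0.292 times in the same order. *EN2* therefore kept the smallest share of covered length for both proteins among the 3 members that kept any.

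A fall of this kind was general in these lists. The SS18::SSX covered length with MS67 was at most 0.5 times that with DMSO at all 5 members, and so it was at 97.5% of the genes with an SS18::SSX DMSO peak. For WDR5 this held for 4 of the 4 members with a DMSO peak and for 76.7% of genes. An SS18::SSX MS67 peak was left in the windows of 3 of the 5 members, and 86.5% of the genes with a DMSO peak had none. These shares are not like for like. At least 10 SS18::SSX DMSO peaks were in the windows of 3 members but of only 2.95% of all genes, and a window with more peaks has more that can be kept. The WDR5 MS67 library was the shallower of its pair.

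**Figure D2:**
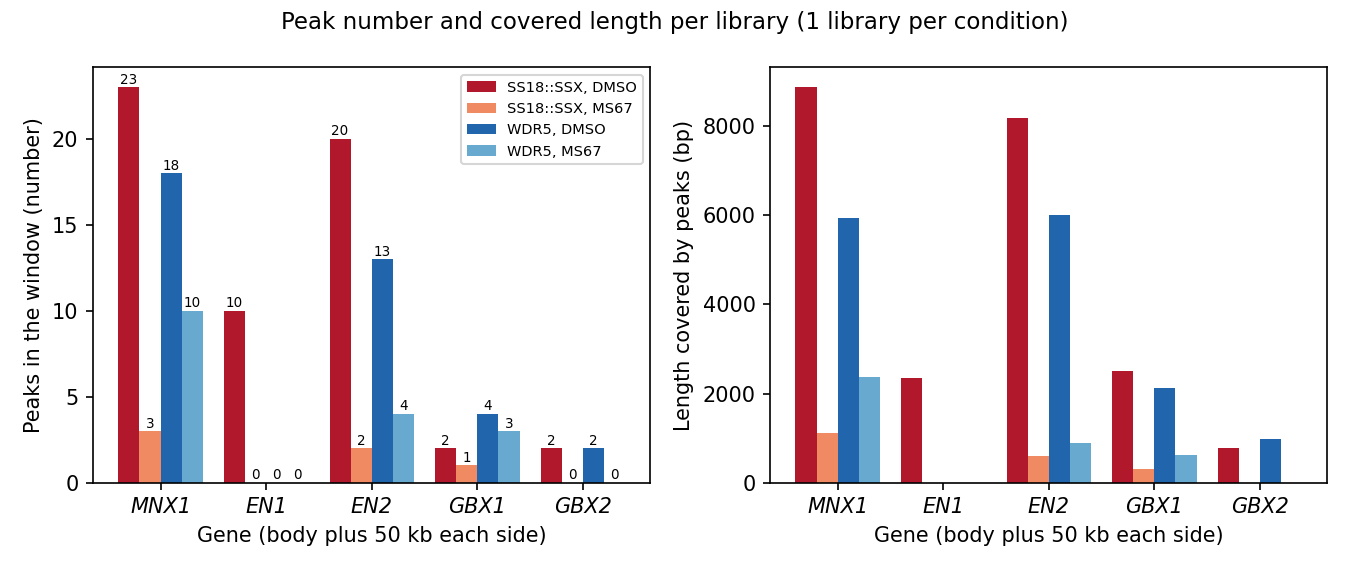
Number of peaks (left) and length covered by peaks in bp (right) in the window of each of the 5 homeobox genes, with 1 bar per library: SS18::SSX with DMSO and MS67 (red tones) and WDR5 with DMSO and MS67 (blue tones). *MNX1* goes from 23 to 3 SS18::SSX peaks and from 18 to 10 WDR5 peaks, and *EN1* has a bar for SS18::SSX with DMSO alone.

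Peak by peak, 51 of the 57 SS18::SSX DMSO peaks at these genes had no overlapping SS18::SSX peak with MS67 (89.5%, exact Clopper-Pearson interval 78.5% to 96.0%), beside 94.2% of all SS18::SSX DMSO peaks. The number lost was 20 of 23 at *MNX1*, 18 of 20 at *EN2*, 10 of 10 at *EN1*, 1 of 2 at *GBX1*, and 2 of 2 at *GBX2*. For WDR5, 25 of 37 DMSO peaks had none with MS67 (67.6%, interval 50.2% to 82.0%), beside 75.0% of all WDR5 DMSO peaks. The number lost was 12 of 18 at *MNX1*, 10 of 13 at *EN2*, 1 of 4 at *GBX1*, and 2 of 2 at *GBX2*. Both intervals include the share over all peaks, but they treat peaks of the same window as independent, which neighbouring peaks are not. Among the 1175 SS18::SSX DMSO peaks of highest −log10 q, as many as the MS67 list holds, 72.7% of the 11 at these genes and 69.4% of all were lost. For the 14123 WDR5 DMSO peaks of highest −log10 q it was 66.7% of the 18 at these genes and 60.04% of all. For both proteins the order of members and all peaks thus turned with the length of the list.

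Each DMSO peak was also scaled, summit and background alike, to the coverage of its MS67 library and set against the lowest −log10 p of the MS67 list. All 51 lost SS18::SSX peaks still passed it, beside 13795 of the 14262 lost in the whole list. The MS67 library was the deeper one here, and 96.9% of all SS18::SSX DMSO peaks passed, lost or not. Of the 25 lost WDR5 peaks at these genes, 14 passed and 11 did not. In the whole list 9687 of the 26708 lost WDR5 peaks passed. Of the 17 WDR5 DMSO peaks that did not pass, 6 were nevertheless called with MS67, so a failed scaling does not show that a call was out of reach, and the part of depth in the lost WDR5 calls was not tested.

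The call of a peak also depends on the density around it, and at *MNX1* and *EN2* this was high. The local background under the SS18::SSX DMSO peaks had a median of 28.4 times the genome-wide coverage at *MNX1*, 15.9 times at *EN2*, 14.5 times at *EN1*, 11.4 times at *GBX2*, and 7.83 times at *GBX1*. Over all SS18::SSX DMSO peaks the median was 5.72 times. Under the WDR5 DMSO peaks it was 18.4 times at *MNX1*, 19.5 times at *EN2*, 7.77 times at *GBX2*, and 3.51 times at *GBX1*, against 4.91 times over all WDR5 DMSO peaks. At *MNX1* it reached 57.7 times for SS18::SSX with DMSO, under a peak centred at −7572 bp from the outermost start site (minus is upstream).

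The background stayed high at *MNX1* and *EN2* after MS67. There were 6 pairs of overlapping SS18::SSX peaks with DMSO and MS67, and at 5 of them, all 3 at *MNX1* and both at *EN2*, the background over coverage was higher with MS67 than with DMSO. At the pair centred with DMSO at −8645 bp from the *MNX1* start site it was 56.7 times with DMSO and 58.3 times with MS67, and at the pair at −11782 bp it was 46.6 and 54.5 times. At *EN2*, at −2997 bp, it was 26.4 and 30.02 times. *GBX1* was the exception, with 10.1 times in DMSO and 5.20 times in MS67.

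At the summits of these 6 pairs the fragments over coverage were lower with MS67 in all 6, with a median ratio of 0.833 and a range of 0.436 at *GBX1* to 0.891 at the *MNX1* site called in every library. The 859 such pairs in the whole genome had a median summit ratio of 0.685 and a median background ratio of 0.846, against 1.07 for the background of the 6. These sites are those with a call in both libraries, so they do not stand for the lost ones. The peaks of a pair shared at least 1 bp, and their summits could lie apart, so a ratio can compare different positions. At the *MNX1* pair at −8645 bp the summits were 157019229 with DMSO and 157018820 with MS67. At *EN2*, at −2997 bp, they were 155455048 and 155455534, and at *GBX1* 151173822 and 151173379. At the *MNX1* site called in every library they were close, at 157008350 and 157008372. Whether the caller's background came from the same library or from a control is not given in the sources used here.

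**Figure D3:**
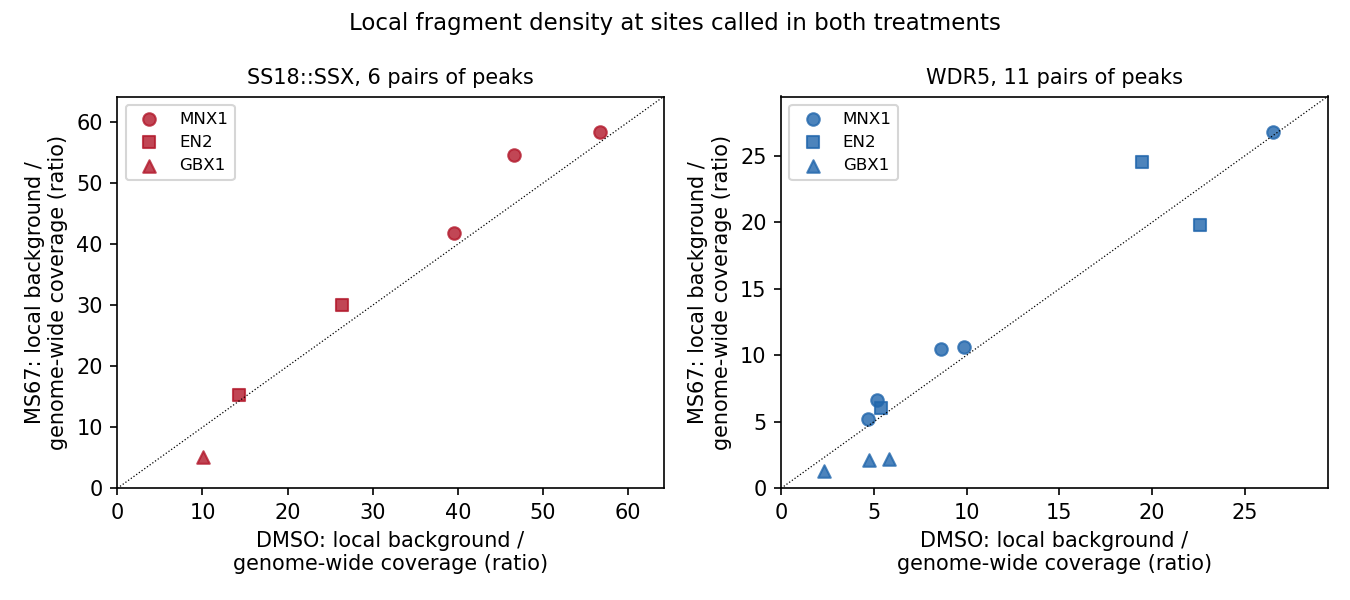
Local background under a peak divided by the genome-wide coverage of its library, with DMSO (horizontal axis) and MS67 (vertical axis), for the 6 pairs of SS18::SSX peaks (left) and the 11 pairs of WDR5 peaks (right) called in both treatments at *MNX1*, *EN2*, and *GBX1*. The dotted line marks equal values, and the *GBX1* points lie below it in both panels.

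For WDR5 there were 11 pairs of MS67 and DMSO peaks, and the background over coverage was higher with MS67 in 7 of them. The median ratio was 1.08 at these genes and 0.915 over the 9094 pairs of the genome. At the summits the fragments over coverage were higher with MS67 in 7 of the 11, with a median ratio of 1.34 and a range of 0.459 to 1.98. Over the 9094 pairs the median summit ratio was 1.25. These pairs, too, are only those with a call in both libraries, and the summits of a pair need not coincide. All 3 pairs in the *GBX1* window had a lower background with MS67, with 4.72 times coverage against 2.10, 5.80 against 2.23, and 2.30 against 1.28. These peaks held 15 and 6, 19 and 4, and 6 and 4 fragments at the summit with DMSO and MS67, which are small numbers. Over coverage these were 40.8 and 35.6, 51.7 and 23.7, and 16.3 and 23.7 times. The last pair lay in the neighbour *IQCA1L*.

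*MNX1* (ENSG00000130675, chr7:156994051-157010663, minus strand) had its SS18::SSX peaks mainly upstream, with 17 of 23 centred before the outermost start site and 5 in the gene body. The strongest was at chr7:157018954-157019662, centred −8645 bp from that start site, with −log10 q of 18.7, a fold of 3.29, and 103 fragments at the summit. It ranked 56 of the 15141 SS18::SSX DMSO peaks by −log10 q, and its summit sequence, shown above, holds 1 GGGCGG. With MS67 an SS18::SSX peak at chr7:157018744-157019056 overlapped it, with −log10 q of 3.82, 86 fragments in the deeper library, and a summit outside the DMSO peak. A WDR5 DMSO peak lay there too, at chr7:157018976-157019312 with 32 fragments, and none was called with MS67.

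The next *MNX1* peak by −log10 q lay in the gene at an inner start site. At chr7:157008825-157009322, SS18::SSX with DMSO had −log10 q of 12.5 and 72 fragments, and a WDR5 DMSO peak at chr7:157008930-157009101 had −log10 q of 2.999 and 27 fragments. Neither was called with MS67. The outermost start site had a WDR5 DMSO peak at chr7:157010995-157011621, centred −645 bp from it, with 34 fragments, no SS18::SSX peak over it, and no call with MS67. The 3 promoter peaks at *MNX1* with DMSO, 1 of SS18::SSX and 2 of WDR5, thus all lacked an MS67 counterpart. No member had an SS18::SSX promoter peak with MS67, and 0.719% of genes had one.

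The *MNX1* site called in every library lay in the gene after all its annotated start sites, in an exon of a retained-intron transcript. SS18::SSX peaks were at chr7:157008206-157008474 with DMSO (56 fragments, −log10 q 5.90) and at chr7:157008206-157008458 with MS67 (68 fragments, −log10 q 3.82). WDR5 peaks were at chr7:157008304-157008507 with DMSO (26 fragments, −log10 q 2.69) and at chr7:157008308-157008461 with MS67 (20 fragments, −log10 q 3.99). It was the only 1 of 79 merged sites at the 5 genes that was in all 4 lists.

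The third SS18::SSX site kept at *MNX1* with MS67, chr7:157021838-157023053 with DMSO, had 77 fragments, and its MS67 peak at chr7:157022082-157022629 had 89 and the highest −log10 q of the 6 SS18::SSX MS67 peaks, 5.70. No WDR5 peak overlapped it in either treatment. Farther upstream, 2 WDR5 MS67 peaks at chr7:157045087-157045333 and chr7:157045824-157046004 (23 and 20 fragments) had no overlapping WDR5 peak with DMSO. Both lay inside or across the edge of an SS18::SSX DMSO peak at chr7:157045233-157046030 that was not called with MS67. The highest WDR5 −log10 q with DMSO at *MNX1*, 14.0, was on the other side, at chr7:156985081-156985851 beyond the 3′ end. The summit there held 23 fragments with DMSO and 10 in the shallower MS67 library, or 62.6 and 59.4 times the coverage.

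Several neighbours had their own promoters in the *MNX1* window. An SS18::SSX DMSO peak at chr7:157006006-157006182 was at a promoter of the antisense RNA gene *MNX1-AS2*, and one at chr7:157058473-157058911 was at that of the long noncoding RNA gene ENSG00000236102. Neither was called with MS67. *MNX1* ranked 36 of 20033 genes by number of WDR5 MS67 peaks, a rank of the whole window. Of these 10 peaks 1 was in the *MNX1* body, as were 4 of the 18 WDR5 DMSO peaks. The MS67 peaks at chr7:156950501-156950733 and chr7:156951357-156951525 lay in the neighbour *NOM1*. So did the WDR5 DMSO peaks at chr7:156950771-156950952 and chr7:156951156-156951895.

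*EN2* (ENSG00000164778, chr7:155458129-155464831, plus strand) had SS18::SSX peaks on both sides, 6 upstream of its start site and 1 in the gene body. The strongest was at chr7:155466185-155466883, 3′ of the gene, centred 8405 bp after the start site, with −log10 q of 16.4, a fold of 5.10, 52 fragments, and rank 100 of 15141. The WDR5 DMSO peak that overlapped it, chr7:155466567-155466780, was weak, with −log10 q of 2.60 and 23 fragments. Neither was called with MS67. No library had a peak in the *EN2* promoter, from 1000 bp before to 100 bp after the start site, although 13.4% of genes had an SS18::SSX DMSO promoter peak and 42.9% a WDR5 one.

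At 2 *EN2* sites SS18::SSX had a peak in both treatments, ranked 9 and 17 of the 20 by −log10 q with DMSO. At −2997 bp, in an intron of *EN2-DT*, a divergent long noncoding RNA gene, the DMSO peak had 43 fragments and −log10 q of 5.72, and the MS67 peak had 48 and 2.13. The MS67 summit lay outside the DMSO peak. At chr7:155484436-155484915, at a promoter of ENSG00000283128 inside *CNPY1*, the values were 26 fragments and 3.77 with DMSO, and 31 fragments and 2.31 with MS67. *CNPY1*, a gene linked to FGF signaling at the midbrain-hindbrain boundary, lies next to *EN2*, and 11 of the 20 SS18::SSX peaks of the *EN2* window were inside it. Of these, 2 were at the promoters of *CNPY1* or ENSG00000227365, with 40 and 30 fragments, and neither was called with MS67.

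For WDR5, the strongest *EN2* peak with DMSO was at the far 5′ edge of the window, chr7:155409127-155409589, with 40 fragments and −log10 q of 11.02. With MS67 it had 14 fragments and 2.38. Over coverage its summit was 109 times with DMSO and 83.1 times with MS67. At −4413 bp a WDR5 peak of 18 fragments was called with MS67 alone. Its background was 32.1 times the genome-wide coverage, the highest at any WDR5 peak of the 5 genes.

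*EN1* (ENSG00000163064, chr2:118842171-118847648, minus strand) had 10 SS18::SSX DMSO peaks within 14 kb of its start site and nothing else. The strongest, chr2:118856930-118857335, was centred −9484 bp from the start site and had −log10 q of 7.80 and 34 fragments. The peak with the most fragments, 36, was the nearest one upstream, centred −1745 bp from the start site. One peak, chr2:118844374-118844602, with 27 fragments and −log10 q of 2.55, was at an inner start site of *EN1*, and one was at the promoter of the noncoding neighbour *LINC01956*, with 24 fragments and −log10 q of 7.32. The closest WDR5 DMSO peak was 67147 bp from the gene and had 8 fragments, and the closest WDR5 MS67 peak was 502904 bp away. No SS18::SSX MS67 peak lay within 1465834 bp of *EN1*.

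*GBX1* (ENSG00000164900, chr7:151148009-151174745, minus strand) had the widest SS18::SSX peak of the 57, chr7:151173216-151175029. It ran over the outermost start site, with its centre 622 bp after it, outside the promoter by the centre rule, and it had 32 fragments and −log10 q of 10.2. With MS67 only 309 bp of it were called, chr7:151173237-151173545, with 19 fragments in the deeper library. The second SS18::SSX DMSO peak, chr7:151166254-151166956 in the gene, had 18 fragments and no MS67 call.

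Of the 4 WDR5 DMSO peaks in the window, 2 were in *GBX1* itself, at an inner start site and apart from SS18::SSX. The DMSO peaks chr7:151167203-151167783 and chr7:151167984-151168493 had 15 and 19 fragments, and both had MS67 peaks, with 6 and 4 fragments. The MS67 peak of 4 fragments was the only member promoter peak of WDR5 with MS67, against 27.7% of genes with one. No SS18::SSX peak overlapped a WDR5 peak at *GBX1*, in either treatment. Farther off, a WDR5 DMSO peak of 12 fragments lay in an intron of *AGAP3* and was not called with MS67. Another, of 6 fragments at an exon of *IQCA1L*, overlapped an MS67 peak of 4 fragments.

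*GBX2* (ENSG00000168505, chr2:236165236-236168386, minus strand) had the fewest calls. Its SS18::SSX DMSO peaks, both 3′ of the gene, had 22 and 20 fragments and −log10 q of 3.59 and 2.30. The first, chr2:236161569-236162195, coincided with a WDR5 DMSO peak at chr2:236161563-236162039 with 21 fragments, and its summit sequence is the only one of the 57 with TAATTA. No MS67 peak of either protein was in the window, and the closest SS18::SSX one was 3641722 bp from the gene.

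**Figure D4:**
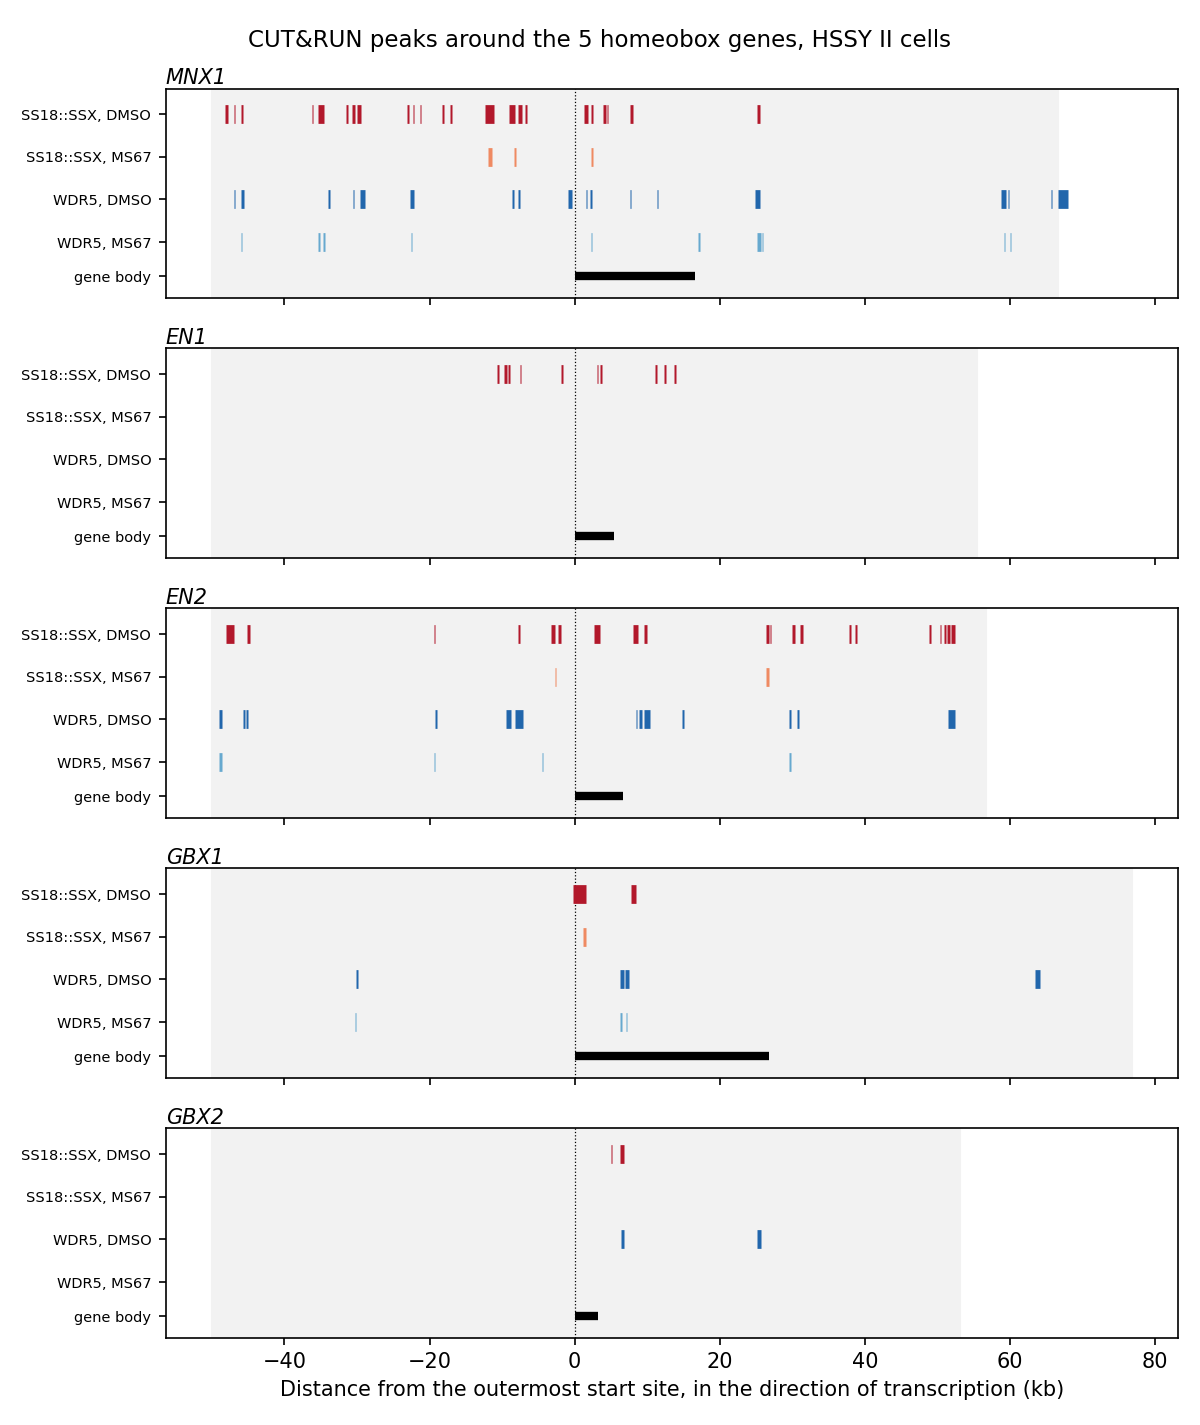
Positions of the peaks of the 4 libraries around each of the 5 homeobox genes, as distance in kb from the outermost start site in the direction of transcription. Coloured bars are peaks drawn at their width, the black bar is the gene body, and the grey area is the window. *MNX1* and *EN2* have peaks of both proteins across the window, *EN1* has a group of 10 SS18::SSX peaks close to the gene, and *GBX1* has SS18::SSX and WDR5 at separate places.

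Shared occupancy differed by direction. Of the 57 SS18::SSX DMSO peaks, 19 overlapped a WDR5 DMSO peak (33.3%, exact interval 21.4% to 47.1%), next to 33.7% of all SS18::SSX DMSO peaks. Of the 37 WDR5 DMSO peaks, 18 overlapped an SS18::SSX peak (48.6%, interval 31.9% to 65.6%), and over all WDR5 DMSO peaks this share was 13.9%. By gene it was 11 of 18 at *MNX1*, 6 of 13 at *EN2*, 1 of 2 at *GBX2*, and 0 of 4 at *GBX1*. The interval treats peaks of 1 window as independent, which neighbouring peaks are not, so 13.9% lying below it carries little weight. SS18::SSX peaks covered 7.61% and 7.68% of the *MNX1* and *EN2* windows, and the part of this density was not tested. With peaks of −log10 q above 5 alone, the members' share fell to 22.2% (4 of 18, interval 6.41% to 47.6%) and that of all WDR5 peaks to 6.14%. For the SS18::SSX peaks the shares were then 16.1% and 20.9%. By gene, 11 of the 23 SS18::SSX peaks at *MNX1* overlapped WDR5, 7 of 20 at *EN2*, 1 of 2 at *GBX2*, and none at *EN1* or *GBX1*. The SS18::SSX peaks that overlapped WDR5 kept a call with MS67 in 2 of 19 cases and those that did not in 4 of 38. These kept calls are too few to compare the groups, and the same split was not made over all SS18::SSX DMSO peaks.

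New calls with MS67 were seen for WDR5 alone. None of the 6 SS18::SSX MS67 peaks was without a DMSO counterpart (0%, interval up to 45.9%), against 26.9% of all SS18::SSX MS67 peaks. For WDR5 it was 6 of 17 (35.3%, interval 14.2% to 61.7%), against 35.6% of all, with 5 at *MNX1* and 1 at *EN2*. Of these 6, 3 lay within 1 kb of a WDR5 DMSO peak and 2 overlapped an SS18::SSX DMSO peak. Of all 17 WDR5 MS67 peaks at these genes, 6 overlapped an SS18::SSX DMSO peak, a similar share. The shares over the whole WDR5 MS67 list were not computed.

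Base composition of the members' SS18::SSX DMSO peaks was that of the list, with a median GC content of 61.0% against 60.6% for all. GGGCGG on either strand was in the 201 bases around 15 of their 57 summits (26.3%), and in 20.5% of all SS18::SSX DMSO summits. CCAAT, the NFY motif, was in 5 (8.77%) against 18.5%, CACGTG, an E-box, in 2 (3.51%) against 4.45%, and TAATTA in 1 (1.75%) against 1.49%. The members' WDR5 DMSO peaks had a median GC content of 63.8% against 58.5% for all. Around these 37 WDR5 summits GGGCGG was found in 12 (32.4%) against 23.1% of all, and CCAAT in 2 (5.41%) against 16.9%. Neighbouring peaks of a gene share their surroundings, and motif matches are descriptions of letters and not of binding. The RefSeq promoters of hg38 matched 4 of the 5 members with 5 start sites, and GGGCGG was in 4 of these 5 against 45.0% of 35116 promoters. A peak overlapped just 1 of them, the *GBX1* promoter with WDR5 in DMSO.

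Related developmental genes were described by the same counts. Among 38 other homeobox genes of the ANTP class, 32 had an SS18::SSX DMSO peak in their window and 11 had one with MS67. For 12 genes of the midbrain-hindbrain boundary the numbers were 11 and 4, and for 12 genes of spinal motor neurons 10 and 4. The median number of SS18::SSX DMSO peaks was 4.5, 6, and 4 in these lists, 10 in the 5 members, and 0 over all protein-coding genes. The summed covered length with MS67 was 0.115, 0.110, and 0.106 times that with DMSO in the lists, 0.0889 times in the members, and 0.0856 times over all genes.

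The longest SS18::SSX coverage in the ANTP list was at *VENTX*, with 39 peaks and 17903 bp, more than at any member, then at *CDX2*, the intestinal regulator, with 8670 bp, and at *PDX1*, the pancreatic regulator, with 6596 bp. In the boundary list it was at *PAX2* with 8599 bp, *CNPY1* with 7740 bp (a window that shares peaks with that of *EN2*), and *PAX5* with 6781 bp. In the motor neuron list it was at *NKX6-2* with 21197 bp, *LHX3* with 4701 bp, and *OLIG1* with 4608 bp. *MNX1* with 8879 bp and *EN2* with 8198 bp thus lay near *CDX2* and *PAX2* and below *VENTX* and *NKX6-2*.

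By covered length in the 4 libraries, as a distance on the log2(bp + 100) scale over all protein-coding genes outside the windows, the genes most like *MNX1* were *OGFOD3* (0.40) and *RELN* (0.46). Those most like *EN2* were *GID8* (0.42) and *HELZ2* (0.49), like *GBX1* *RP1L1* (0.28) and *CFAP77* (0.42), and like *GBX2* *INSYN1* (0.08) and *BMP3* (0.11). *EN1* had no close match, with *CLEC4M* at 0.89 and *NKX2-4* at 1.45, both with SS18::SSX DMSO peaks and none in the other 3 libraries.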

How the data were processed

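The authors aligned the CUT&RUN reads to hg38 with Bowtie2, removed nonprimary alignments and PCR duplicates, and called peaks with MACS2 in each library on its own; its options, and any control library, are not given in the sources used here. For each peak they deposited its position, a score that restates −log10 q as a whole number (not used), the fold enrichment ratio at the summit, and its −log10 p and −log10 q values. From these the summit pileup and local background were solved, since the fold is (pileup + 1) over (background + 1) and the p-value is the Poisson tail of both. A whole-number pileup could be found for 100% of the peaks within 0.001 in −log10 p, and the step was tested on simulated data. The simulated backgrounds were lower than those of most SS18::SSX DMSO peaks at *MNX1* and *EN2*, so that test did not cover these. In at least 99.8% of the peaks of each list the background was no lower than 0.5 times the pileup spread over the peak's width in 10 kb. This bar is low for narrow peaks, so it cannot tell whether the background came from a control.

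Overlap meant at least 1 shared bp. A promoter peak had its centre from 1000 bp upstream to 100 bp downstream of any GENCODE 44 start site. Where the peak number was tied, genes shared a rank. Named genes were the members, other genes whose promoter held a peak in a window, the 3 genes of each list with the longest SS18::SSX DMSO coverage, and the 2 genes nearest each member in pattern (pseudocount 100 bp), but neighbours were named only where a value is given. *NOM1*, *AGAP3*, and *IQCA1L* were named because WDR5 peaks counted in the windows lay inside them. Members and lists were chosen with earlier results of these data known. Intervals are exact Clopper-Pearson at 95%. Other windows, thresholds, overlaps, promoters, merging of peaks, and shortened DMSO lists were tried. Protein sequences, spike-in–normalized signals, and CUT&Tag data were not analysed here. Python 3.11.15, numpy 2.4.6, scipy 1.17.1, pandas 2.3.3, pysam 0.24.0, and matplotlib 3.10.9 were used.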

Additional observations from a re-analysis of the deposited data

How the results depend on the processing

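Of 70 alternative values for 12 results, 29 stayed within 1.5 times the count or within the interval of the share given in the report, and 41 moved. Peak numbers follow the window by construction. With 10 kb on either side there were 28 SS18::SSX peaks with DMSO and 17 and 7 WDR5 peaks with DMSO and MS67, with 100 kb 11 SS18::SSX peaks with MS67 and 69 and 29 WDR5 peaks, and in the gene bodies alone 10 and 2 SS18::SSX and 6 and 3 WDR5 peaks. With −log10 q above 3 and a fold minimum of 3 (SS18::SSX) or 6 (WDR5), 35 and 1 SS18::SSX and 3 and 0 WDR5 peaks were left, and with −log10 q above 5, 31 and 1 and 18 and 1. Merging peaks within 1 kb left 33 SS18::SSX DMSO peaks. The share of SS18::SSX peaks lost was 97.1% and 96.8% under these thresholds, 96.5% when 50% of a peak had to be covered, and 72.7% (of 11 peaks) with the DMSO list cut to the length of the MS67 list, below the report's interval. The share of WDR5 peaks lost was 50% (of 6) in gene bodies, 100% (of 3 and of 18) under the thresholds, and 83.8% when 50% had to be covered. SS18::SSX peaks shared with WDR5 made up 2.86% and 16.1% under the thresholds, 21.1% with 50% covered, and 54.4% within 1 kb, and WDR5 peaks shared with SS18::SSX 22.2% with −log10 q above 5 and 70.3% within 1 kb. Promoters from 2000 bp before to 500 bp after a start site held 4 SS18::SSX DMSO and 2 WDR5 MS67 peaks, any overlap gave 2 WDR5 MS67 peaks, the fold thresholds left 1 SS18::SSX DMSO, 1 WDR5 DMSO, and 0 WDR5 MS67 peaks, and −log10 q above 5 left 1 SS18::SSX DMSO and 0 WDR5 MS67 peaks. Except where a setting changes the peaks counted, the cause was not tested. No paired analysis was possible because each condition had 1 library and no test was made, and for the same reason no library could be left out. Peaks of 4 to 10 fragments in the WDR5 MS67 list limit what a lost call shows.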
